A study of Mus musculus with 9 samples.

Results

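The genes described here are 38 genes of the keratinocyte, the main cell of the epidermis. They were chosen by name, with earlier results of these data known. They hold genes of the basal layer, keratins of wounds and skin appendages, genes of cornification and parts of the desmosome. Junction genes that epithelia in general share and 3 other keratinocyte genes complete the list. A probe was found for 35 of the 38, and 32 of these passed a filter that asks for a tumour signal well above background on 3 or more of the 9 arrays. In all, 13114 named genes had a probe that passed. Flg, Krtdap and Dsg1a had no matched probe, and the probes of Dsg3, Dsc1 and Dsc3 were too dim, being well above background on 2, 2 and 1 arrays. Where a gene had several probes, the one with the highest mean signal was used.

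RNA came from tumours of B16-F10, a mouse melanoma cell line, in 3 variants. Their capacity to make and secrete histamine was diminished (HDC-A), left unmodified (HDC-M) or enhanced (HDC-S) by changing the level of HDC, L-histidine decarboxylase, on which histamine synthesis depends. Each group had 6 tumours, whose RNA was pooled at random in pairs, so that each group had 3 pools of 2 tumours and each pool was 1 array. Each tumour pool was labelled with Cy5 and compared on its array with 1 Cy3-labelled reference, RNA of HDC-M cells grown in culture. Values are log2(Cy5/Cy3) after normalisation, so that 0 means equal to the cultured cells and 1 means a doubling. Dyes were not swapped. A dye bias that is the same on every array drops out of a difference between groups, but whether it was the same was not tested. Each group rests on 1 line variant, so an effect of histamine and a property of that variant cannot be told apart. Mouse strain, age, the site of the tumours and how skin was removed are not given in the sources used here.

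The epidermis renews itself from a basal layer, where keratinocytes divide and make keratins 5 and 14 and are held to the basement membrane by hemidesmosomes. Cells that leave this layer switch to keratins 1 and 10 and then build the cornified envelope, in which transglutaminases cross-link proteins such as loricrin, involucrin and the small proline-rich proteins, while desmosomes join neighbouring cells. Keratin 16 is made when the epidermis is wounded or otherwise activated, and keratin 17 is made in hair follicles and other appendages and in wounds. Melanoma cells are not known for this programme, and tumours that lie in or under skin can carry some of it into a sample.

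In the cultured reference most of these genes were at or near background. The Cy3 signal exceeded the 99th percentile of the negative control spots on all 9 arrays for 6 of the 32 genes (Krt5, Itgb4, Krt16, Krt17, Sbsn and Sfn), on some arrays for 16 and on none for 10. A log2 ratio of such a gene is therefore a level over a floor, and ratios are compared between arrays for the same gene only. The reference RNA was the same on every array, yet relative to the median negative control spot its signal for Krt5 ranged from 1.17-fold to 4.42-fold and that for Krt14 from 1.06-fold to 3.34-fold, each highest on HDC-M 1. Why the reference signal moved was not tested. In the Cy5 channel alone the difference between HDC-S and HDC-M for Krt5 was -3.14 on the log2 scale, against -1.65 from the ratios.

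Across the 9 arrays, between 58.0% and 69.7% of spots were well above background in the tumour channel, and arrays correlated with r of 0.899 to 0.950 within groups and 0.862 to 0.922 between groups (Pearson, across probes). The arrays were scanned on 2 days, with replicates 1 and 2 of every group on the first and replicate 3 of every group on the second. Among the 32 genes the median of the within-group standard deviation was 0.589, against 0.0983 over all 26867 probes tested, and 22 of the 30 genes with a value on every array lay above the 95th percentile of all probes, 0.286. These genes differed more between tumour pools of 1 group than most of the transcriptome did.

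**Figure D1:**
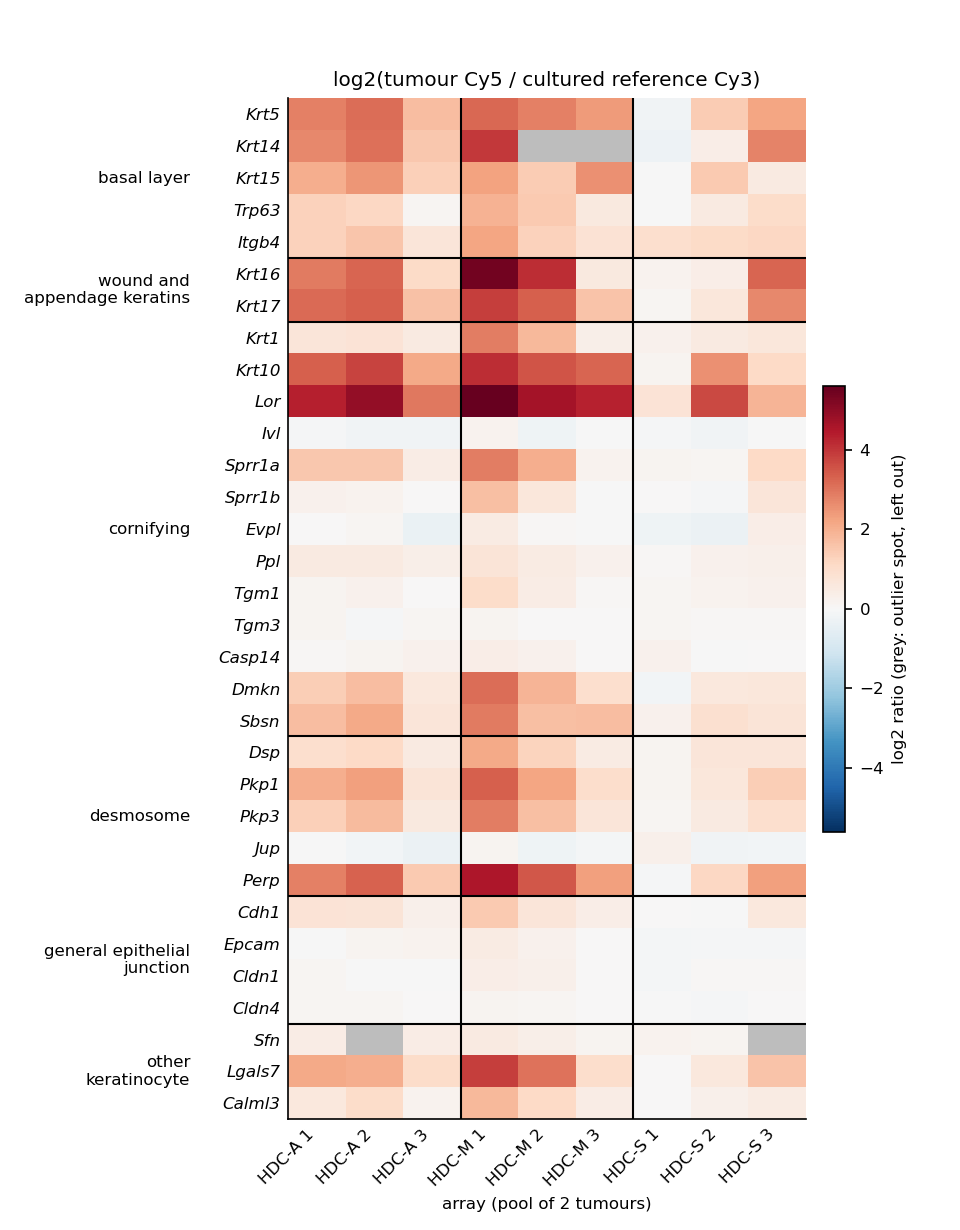
Each cell is log2(Cy5/Cy3) of 1 gene (rows, grouped by role) on 1 array (columns, 3 pools of 2 tumours per group); red is above the cultured reference, blue below, and grey marks spots left out as outliers. HDC-M 1 had the highest value in 28 and HDC-S 1 the lowest in 19 of the 30 genes with a value on every array.

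HDC-M 1 was the highest array for 28 of the 30 genes measured on every array, and HDC-S 1 was the lowest for 19. The median of the 32 genes was 2.18, 1.29 and 0.40 on the 3 HDC-M arrays, 1.13, 1.15 and 0.46 on the HDC-A arrays and 0.08, 0.37 and 0.66 on the HDC-S arrays. The groups overlapped in this median, since HDC-M 3 lay below HDC-S 3. In bulk samples such as these, fewer keratinocytes and less RNA per keratinocyte cannot be told apart.

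Setting HDC-S against HDC-M asks how tumours with an enhanced capacity to make histamine differ from tumours of the unmodified variant. Of the 32 genes, 30 were lower in HDC-S and 2 higher, with a median log2 difference of -0.83, while the median of all probes was 0.0092 and 46.8% of them were below 0. With limma, no gene passed an adjusted p of 0.05, against 0.681% of all probes, and 17 of the 32 (53.1%) were lower at an unadjusted p under 0.05, against 6.41% of all probes. The lowest adjusted p was 0.113, that of Krt10. The genes largely share their high and low arrays and were chosen with earlier results known. Their counts, here and for the smaller lists below, are thus not counts of independent genes, and the shares were not tested. Over the 30 genes with 3 values in both groups, 6 (20.0%) had every HDC-S array below every HDC-M array, against 10.1% of all probes. These were Krt5, Krt10, Lor, Dmkn, Sbsn and Epcam. Epcam, Ivl and Cldn1 are among the genes counted in this comparison, though no HDC-S array was well above background for them. The filter favours lower HDC-S values for these genes. All of them are within the 30 lower genes, and Epcam is also within the 17 and the 6. The counts were not redone without them. Without HDC-M 1 the median difference was -0.49.

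**Figure D2:**
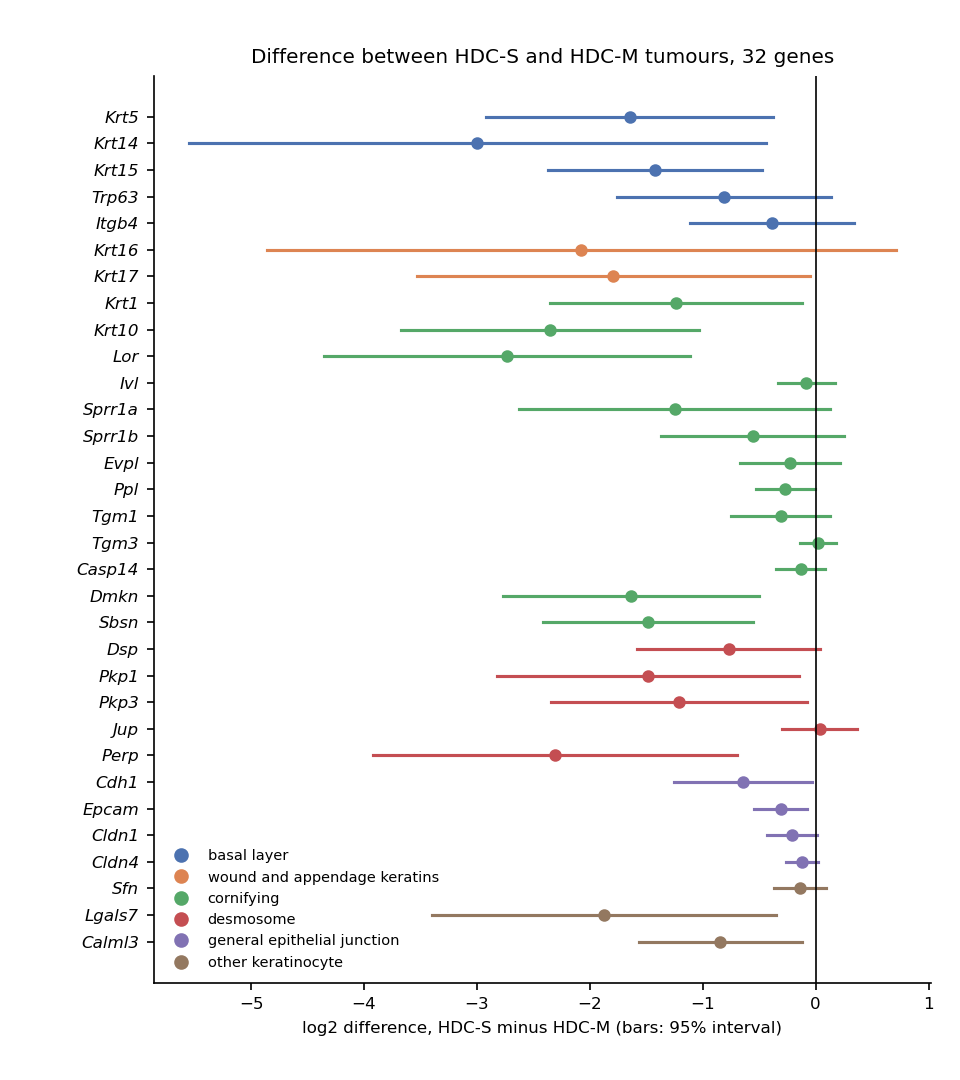
Points are the log2 difference of HDC-S minus HDC-M for each of the 32 genes and bars its 95% interval from limma (3 arrays per group, and 1 usable HDC-M array for Krt14); colours mark the roles. Jup (0.04) and Tgm3 (0.02) are the 2 points above 0.

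All 5 basal genes lay lower in HDC-S than in HDC-M. At an unadjusted p under 0.05 (limma) 3 (60.0%) did so, against 6.41% of all probes. The median difference of the 5 was -1.42. Without HDC-M 1 this median was -0.92. Krt5, the type II keratin of basal cells, had log2 ratios of 2.81, 3.14 and 1.74 in HDC-A, 3.20, 2.82 and 2.41 in HDC-M and -0.18, 1.44 and 2.23 in HDC-S. All 3 HDC-S arrays were below all 3 HDC-M arrays, although HDC-S 3 lay close below HDC-M 3. The difference was -1.65 (SE 0.564, adjusted p = 0.219, limma).

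Krt14, the partner of Krt5, could be measured on 1 HDC-M array alone, because its spots on HDC-M 2 and 3 were marked as outliers. It read 2.71, 3.09 and 1.52 in HDC-A, 3.96 on HDC-M 1, and -0.27, 0.38 and 2.79 in HDC-S. The difference of -2.997 (SE 1.09, adjusted p = 0.270) thus rests on the array that was highest for most genes, and with the outlier spots kept it was -1.84 (adjusted p = 0.382). Krt14, Krt16 and Krt17 are related type I keratins, and binding of 1 transcript to a neighbour's probe was not tested.

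Krt15, a keratin of basal cells and of hair follicle stem cells, read 2.02, 2.47 and 1.34 in HDC-A, 2.24, 1.43 and 2.56 in HDC-M and -0.02, 1.48 and 0.51 in HDC-S. It was the basal gene with its highest value on HDC-M 3, and HDC-S 2 lay just above the lowest HDC-M array. The difference was -1.42 (SE 0.422, adjusted p = 0.165).

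Trp63, which encodes p63, the transcription factor of stratified epithelia, had values of 1.94, 1.46 and 0.54 in HDC-M and -0.04, 0.49 and 1.04 in HDC-S. The groups overlapped and the difference was -0.82 (adjusted p = 0.420). Itgb4, the beta subunit of the hemidesmosome integrin, varied least of the basal genes in HDC-S, at 0.96, 1.08 and 1.16, beside 2.23, 1.29 and 0.83 in HDC-M (difference -0.38, adjusted p = 0.644).

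Krt16 had the widest spread between pools of 1 group, with a standard deviation of 2.53 in HDC-M. It read 2.93, 3.27 and 1.07 in HDC-A, 5.39, 4.15 and 0.53 in HDC-M and 0.21, 0.36 and 3.28 in HDC-S. Array 3 of both HDC-M and HDC-S lay apart from its group, HDC-M 3 low and HDC-S 3 high. Its difference of -2.08 (SE 1.24, adjusted p = 0.490) was smaller than that standard deviation. Krt17 had the same high and low arrays, with 3.16, 3.35 and 1.63 in HDC-A, 3.89, 3.34 and 1.58 in HDC-M and 0.09, 0.66 and 2.68 in HDC-S (difference -1.79, SE 0.775, adjusted p = 0.330).

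Among the 13 measured cornifying genes, 6 (46.2%) were lower in HDC-S at an unadjusted p under 0.05 (limma), against 6.41% of all probes. In direction 12 were lower in HDC-S, including Ivl, for which the filter favours this. The other, Tgm3, was not lower, and the median of the 13 was -0.56. This median was -1.04 with the scanner software's own ratios, -0.15 without HDC-M 1 and -0.95 without HDC-M 3. Krt10, the type I keratin of suprabasal cells, read 3.33, 3.79 and 2.12 in HDC-A, 4.15, 3.50 and 3.27 in HDC-M and 0.17, 2.57 and 1.13 in HDC-S. No HDC-S array reached the HDC-M group, and the difference was -2.35 (SE 0.588, 95% interval -3.68 to -1.03, adjusted p = 0.113). The exact two-sided permutation test of this gene gave p = 0.1, the smallest that 3 against 3 arrays allow.

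Lor, which encodes loricrin, the main protein of the cornified envelope, read 4.34, 4.91 and 2.96 in HDC-A, 5.58, 4.65 and 4.32 in HDC-M and 0.75, 3.70 and 1.91 in HDC-S. The HDC-S arrays were again all below the HDC-M arrays, and HDC-S 2, not HDC-S 3, was the nearest. The difference was -2.73 (SE 0.721, adjusted p = 0.128).

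Dmkn and Sbsn, which encode dermokine and suprabasin, secreted proteins of the differentiating epidermis, were the other cornifying genes without overlap. Dmkn read 3.15, 1.92 and 0.93 in HDC-M and -0.13, 0.60 and 0.62 in HDC-S (difference -1.64, adjusted p = 0.178). Sbsn read 2.92, 1.67 and 1.72 in HDC-M and 0.22, 0.91 and 0.72 in HDC-S (difference -1.49, adjusted p = 0.144). Both have a further probe, which differed by -0.13 for Dmkn and -0.54 for Sbsn, while that of Krt10 gave -1.99. The further Sbsn probe read 1.43, 0.61 and 0.27 in HDC-M and 0.07, 0.45 and 0.18 in HDC-S. That of Dmkn read 0.26, -0.15 and -0.03 in HDC-M and -0.14, -0.02 and -0.13 in HDC-S. By these probes the groups overlapped, so size and lack of overlap depend on the probe for Dmkn and Sbsn.

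Krt1, the partner of Krt10, had a different order of arrays from Krt10. It read 0.66, 0.75 and 0.51 in HDC-A, 2.88, 1.83 and 0.33 in HDC-M and 0.22, 0.50 and 0.61 in HDC-S, so that HDC-M 3 lay below both HDC-S 2 and HDC-S 3 (difference -1.23, adjusted p = 0.294). Sprr1a, a small proline-rich protein of the envelope that is induced in wounds, read 2.89, 2.04 and 0.18 in HDC-M and 0.15, 0.10 and 1.11 in HDC-S (difference -1.25, adjusted p = 0.396). Sprr1b, its relative, read 1.69, 0.64 and -0.01 in HDC-M and 0.03, -0.05 and 0.66 in HDC-S, and differed by -0.56 (adjusted p = 0.532). In all 3 genes HDC-S 3 was above HDC-M 3.

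The other cornifying genes moved little with the processing used. Envoplakin (Evpl) and periplakin (Ppl), which link the envelope to desmosomes, differed by -0.23 and -0.27, the transglutaminases Tgm1 and Tgm3 by -0.31 and 0.02, and the protease Casp14 by -0.13. The adjusted p of these 5 ranged from 0.333 for Ppl to 0.936 for Tgm3. Ivl, which encodes involucrin, was well above background on all 3 HDC-M arrays but on no HDC-A or HDC-S array. It thus passed the filter through HDC-M alone, which favours a higher value there, and its differences of -0.08 in HDC-S and -0.13 in HDC-A (adjusted p = 0.801 and 0.632) support no direction.

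The stretches before the transcription start are shown for 5 genes that carry the contrast between arrays: Krt5 for the basal layer, Krt10 and Lor, which were lower in HDC-S on both scan days, and Sprr1a and Sprr1b, which were lower on the first day and higher on the second. They are the 250 bases upstream of the start from RefSeq (GRCm38.p6), on the gene's own strand, and promoter entries were found for 19 of the 32 genes. The windows are chr15:101712906-101713155 for Krt5, chr11:99389365-99389614 for Krt10, chr3:92083143-92083392 for Lor, chr3:92485882-92486131 for Sprr1a and chr3:92438780-92439029 for Sprr1b, all on the minus strand. Capitals mark matches to TATAAA, a core promoter element, or to TGANTCA, the motif of the factor AP-1. The AP-2 motif, GCCNNNGGC, was also searched, and each was read on both strands.
Krt5: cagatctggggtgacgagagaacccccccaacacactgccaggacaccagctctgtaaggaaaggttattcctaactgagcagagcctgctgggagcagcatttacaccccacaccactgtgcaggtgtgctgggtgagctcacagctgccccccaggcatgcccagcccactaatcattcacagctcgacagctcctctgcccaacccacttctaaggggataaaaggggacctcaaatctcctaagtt
Krt10: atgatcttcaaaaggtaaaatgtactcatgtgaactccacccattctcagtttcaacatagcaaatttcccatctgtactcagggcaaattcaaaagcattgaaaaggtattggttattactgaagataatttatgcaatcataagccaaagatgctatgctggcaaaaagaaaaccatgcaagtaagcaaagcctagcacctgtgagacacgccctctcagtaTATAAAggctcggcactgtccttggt
Lor: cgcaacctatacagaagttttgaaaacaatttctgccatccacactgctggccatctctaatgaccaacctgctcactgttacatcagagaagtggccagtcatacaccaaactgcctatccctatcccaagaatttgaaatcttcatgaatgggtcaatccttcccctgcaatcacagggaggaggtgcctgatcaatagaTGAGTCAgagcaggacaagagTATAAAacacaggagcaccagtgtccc
Sprr1a: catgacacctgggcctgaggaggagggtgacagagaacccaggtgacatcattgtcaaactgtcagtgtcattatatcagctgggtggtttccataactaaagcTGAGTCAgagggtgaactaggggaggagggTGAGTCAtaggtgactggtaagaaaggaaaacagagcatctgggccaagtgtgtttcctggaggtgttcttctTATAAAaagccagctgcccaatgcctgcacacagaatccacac
Sprr1b: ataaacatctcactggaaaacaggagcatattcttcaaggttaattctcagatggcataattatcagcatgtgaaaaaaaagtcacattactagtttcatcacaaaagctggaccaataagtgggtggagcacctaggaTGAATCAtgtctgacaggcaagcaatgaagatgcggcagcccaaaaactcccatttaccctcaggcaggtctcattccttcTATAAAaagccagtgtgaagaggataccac
The letters TATAAA begin 26 bases before the start in Krt10, 27 in Lor, 43 in Sprr1a and 30 in Sprr1b, and matches of different motifs did not overlap in these windows. TGANTCA occurs 2 times in Sprr1a and 1 time each in Lor and Sprr1b, and none of the 3 motifs is in the Krt5 window. Over the 22 windows of the 19 genes, TATAAA was in 6, TGANTCA in 9 and GCCNNNGGC in 1. Counted by gene, they were in 6, 7 and 1 of the 19, as Dmkn has 3 windows and Tgm1 has 2. Over all 32851 promoter windows of this length the motifs were in 12.4%, 6.75% and 13.7%. These are matches of letters and were not tested as binding sites.

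Of the 5 desmosome genes measured, 4 were lower in HDC-S, with a median of -1.21 over the 5. At an unadjusted p under 0.05 (limma) 3 (60.0%) were lower, against 6.41% of all probes. Perp, a tetraspan protein of desmosomes and a target of p63 and p53, read 2.81, 3.31 and 1.46 in HDC-A, 4.54, 3.48 and 2.31 in HDC-M and -0.08, 1.17 and 2.31 in HDC-S. HDC-M 3 and HDC-S 3 were equal to 2 decimals, and the difference between the groups was -2.31 (SE 0.718, adjusted p = 0.182). Pkp1 and Pkp3, the plakophilins of the desmosomal plaque, differed by -1.48 (adjusted p = 0.293) and -1.21 (adjusted p = 0.314).

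Pkp1 read 3.34, 2.22 and 1.00 in HDC-M against 0.13, 0.61 and 1.36 in HDC-S, and Pkp3 had 2.86, 1.67 and 0.67 against 0.11, 0.52 and 0.95. In both genes HDC-M 3 lay below HDC-S 3, so the groups overlapped. Dsp, which encodes desmoplakin, read 2.12, 1.26 and 0.45 in HDC-M and 0.14, 0.69 and 0.69 in HDC-S and differed by -0.77 (adjusted p = 0.372). Without HDC-M 1 the differences of Pkp1, Pkp3 and Dsp were -0.91, -0.65 and -0.35. Jup, which encodes plakoglobin, a protein of desmosomes and adherens junctions in many cells, differed by 0.04 (adjusted p = 0.942).

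Among the 4 general junction genes the differences were all below 0 in HDC-S and, with the processing used, small. With the scanner software's ratios they were larger for Cdh1 (-1.53), Epcam (-1.41) and Cldn4 (-0.78), so their size depends on the processing. E-cadherin (Cdh1) read 1.47, 0.69 and 0.38 in HDC-M and 0.03, -0.01 and 0.59 in HDC-S (difference -0.64, adjusted p = 0.317). Epcam, an adhesion protein of simple epithelia that Langerhans cells also carry, was well above background on 3 HDC-A and 2 HDC-M arrays and on no HDC-S array. It passed the filter without HDC-S, which favours a lower value there. Its difference of -0.31 between HDC-S and HDC-M (adjusted p = 0.211, limma) thus supports no direction. The claudins Cldn1 and Cldn4, parts of tight junctions, differed by -0.21 and -0.12 (adjusted p = 0.369 and 0.418). Cldn1 was well above background on 2 HDC-M and on no HDC-S array, so the filter favours a lower HDC-S value. Under median centring in place of loess its difference was 0.04, so its direction depends on the normalisation.

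Of the remaining genes, Lgals7, galectin-7 of stratified epithelia, read 2.14, 2.03 and 1.01 in HDC-A, 3.87, 3.02 and 1.00 in HDC-M and 0.04, 0.61 and 1.62 in HDC-S (difference -1.87, adjusted p = 0.242). Calml3, a calmodulin-like protein of epithelia, differed by -0.84 (adjusted p = 0.266). Sfn, which encodes 14-3-3 sigma, was the exception in the reference by its chosen probe. There that probe read between 9.52-fold and 12.8-fold the median negative control spot in Cy3, and its other 2 probes between 1.06-fold and 1.14-fold. The log2 ratios of the chosen probe lay between 0.17 and 0.50 on the 7 arrays with a usable spot. Its difference was -0.14 (adjusted p = 0.590, limma), while the other 2 probes differed by -0.67 and -0.53.

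**Figure D3:**
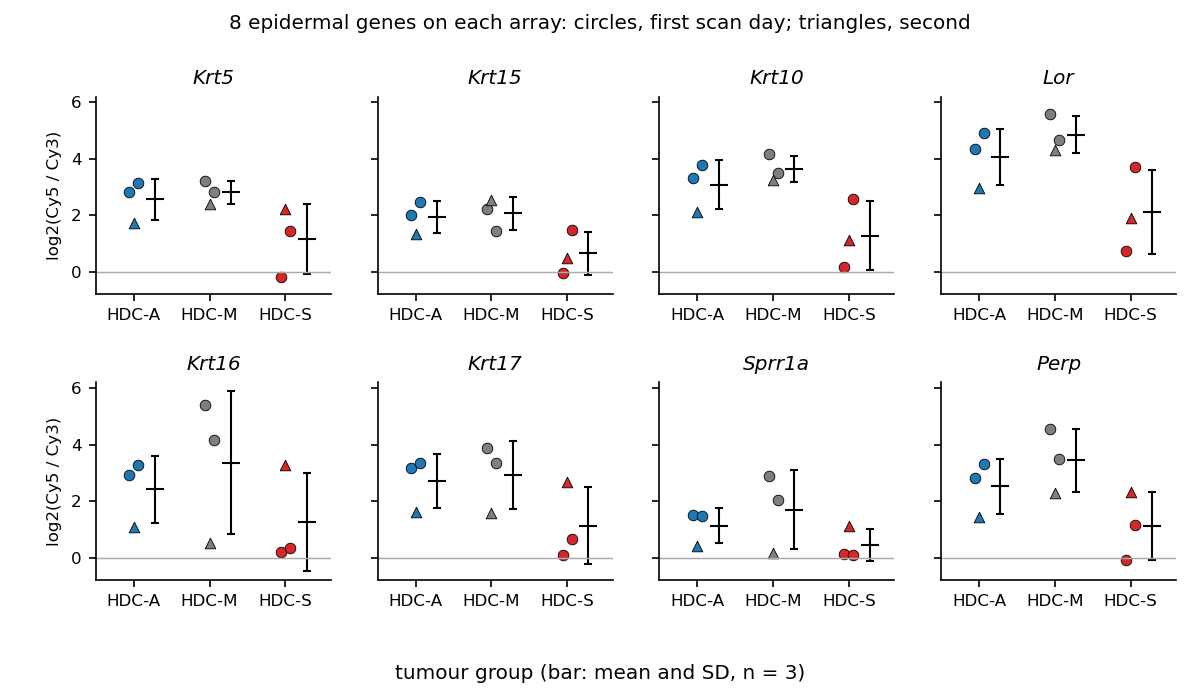
log2(Cy5/Cy3) of 8 genes in the 3 tumour groups, each point 1 array (circles scanned on the first day, triangles on the second), with the mean and standard deviation of the 3 arrays. For Krt16, HDC-M 3 (0.53) lies below HDC-S 3 (3.28), whereas for Lor HDC-M 3 (4.32) lies above HDC-S 3 (1.91).

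The scan days gave different pictures. On the first day, where replicates 1 and 2 of the groups were scanned, 30 of the 32 genes were lower in HDC-S than in HDC-M, with a median difference of -1.29. On the second day, where 1 array per group was scanned, 10 of 30 genes were lower and 20 higher, with a median of 0.0574. A fit on the first day alone called 4 genes at an adjusted p of 0.05 (limma), all lower in HDC-S: Krt14 (-3.91), Krt16 (-4.49), Krt17 (-3.24) and Lgals7 (-3.12). Over all probes this fit called 30 of 26859 in HDC-S against HDC-M. Each group has 2 arrays in it, except that Krt14 had 1 usable HDC-M array, HDC-M 1, which was assumed to vary like the other groups. Krt16, Krt17 and Lgals7 were higher in HDC-S 3 than in HDC-M 3, and Krt14 had no usable HDC-M value on the second day. With the scan day as a block over all 9 arrays no gene passed, and Krt10 had an adjusted p of 0.111. A scan day here separates pool 3 of each group from the others, so the day and the pools cannot be told apart.

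**Figure D4:**
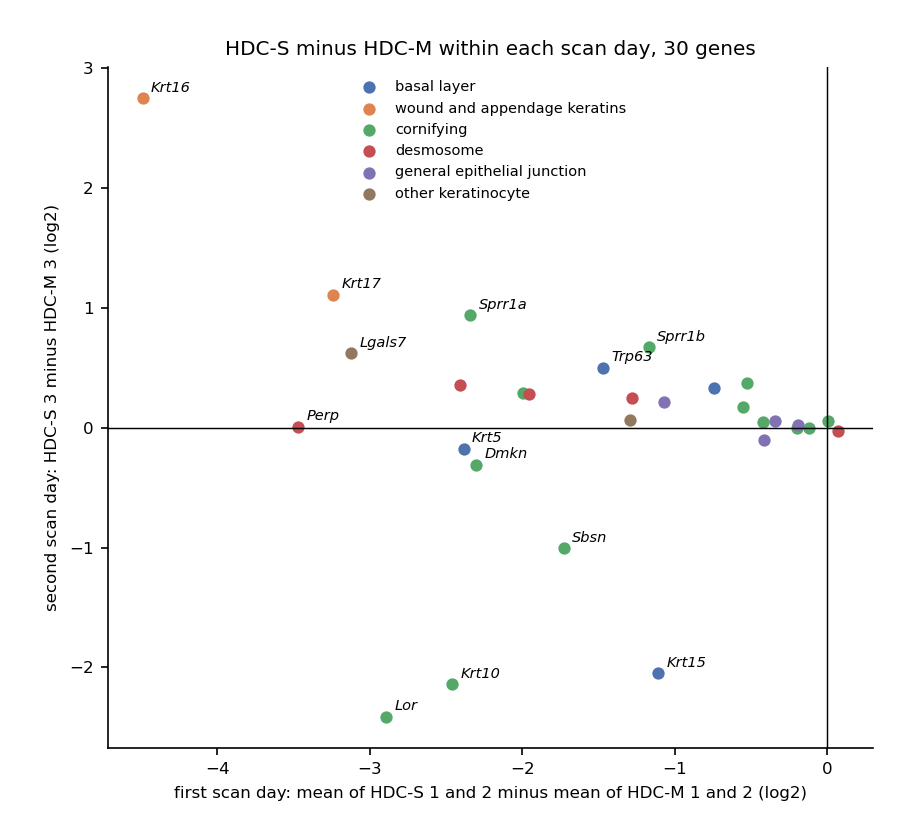
Each point is 1 of 30 genes, with the HDC-S minus HDC-M difference in log2 ratio on the first scan day (horizontal axis, 2 arrays per group) and on the second (vertical axis, 1 array per group); colours mark the roles. Lor, Krt10, Krt15 and Sbsn lie over 1 log2 unit below 0 on both axes, while Krt16 is at -4.49 on the first day and 2.75 on the second.

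Of the 30 genes with values on both days, 19 were over 1 log2 unit lower in HDC-S on the first day. Of these 19, 4 were over 1 log2 unit lower on the second day too, 13 were higher there, and Krt5 and Dmkn were lower by less. The 4 were Lor (-2.89 and -2.41), Krt10 (-2.46 and -2.14), Krt15 (-1.11 and -2.05) and Sbsn (-1.73 and -1.003), and they were singled out after their values were seen. The further Sbsn probe read 0.27 on HDC-M 3 and 0.18 on HDC-S 3, so Sbsn is among the 4 by its chosen probe only. The opposite pattern was clearest in Krt16 (-4.49 and 2.75), Krt17 (-3.24 and 1.11), Sprr1a (-2.34 and 0.93), Sprr1b (-1.17 and 0.67) and Lgals7 (-3.12 and 0.62). The second day has no replicate, so its values carry no test.

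Set beside each other, the basal and cornifying medians ranked the arrays differently. The basal median was 2.24, 1.45 and 1.62 on the HDC-M arrays, 2.02, 2.47 and 1.34 on the HDC-A arrays and -0.04, 1.08 and 1.16 on the HDC-S arrays. By this median every HDC-S array was below every HDC-M and every HDC-A array, but its genes did not all follow it on the second scan day. There 4 of the 5 basal genes were higher in HDC-S 3 than in HDC-A 3, with a median difference of 0.49, and 2 of the 4 with a value were higher in HDC-S 3 than in HDC-M 3. The cornifying median was 1.69, 0.64 and 0.18 in HDC-M, 0.52, 0.51 and 0.31 in HDC-A and 0.12, 0.21 and 0.61 in HDC-S, and these groups overlapped. The wound and appendage keratins, at 4.64, 3.74 and 1.05 in HDC-M and 0.15, 0.51 and 2.98 in HDC-S, overlapped as well. By their chosen probes Krt10, Lor, Dmkn and Sbsn, though cornifying genes, shared with the basal median that every HDC-S array was below every HDC-M array. The basal medians of HDC-M 2 and 3 lack Krt14, whose spots there were outliers. With outlier spots kept Krt14 read 3.29 on HDC-M 2, 1.18 on HDC-M 3 and 2.79 on HDC-S 3. Its value on HDC-M 3 is close to the basal median of HDC-S 3 (1.16). The basal median of HDC-M 3 (1.62) thus depends on leaving that spot out. The gene at the cornifying median changed between arrays and was often dim, such as Ppl on the HDC-A arrays and Tgm1 on HDC-S 1 and 2. With Cy5 required well above background on 6 arrays, the cornifying median difference between HDC-S and HDC-M was -1.23, against -0.56. How far such dim genes account for the contrast between the layers was not tested.

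**Figure D5:**
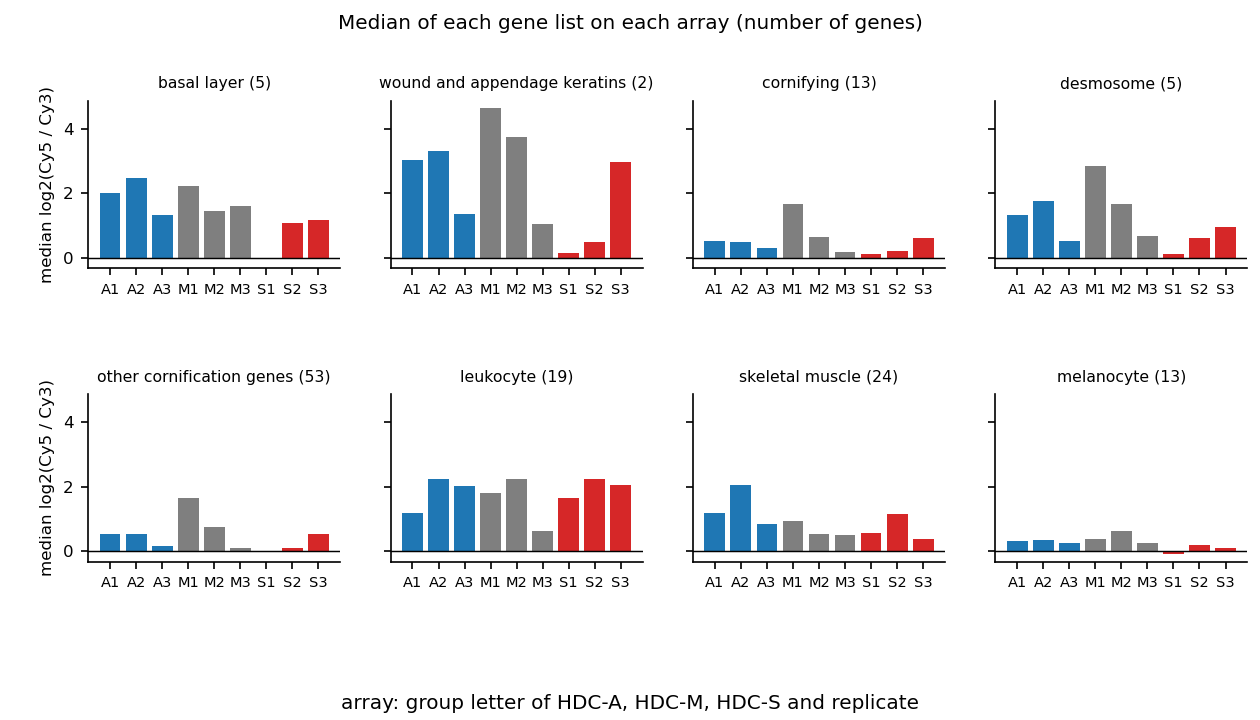
Bars are the median log2(Cy5/Cy3) of a gene list on each array, with the number of genes in brackets (blue HDC-A, grey HDC-M, red HDC-S). The 5 epidermal panels are lowest on HDC-S 1, while the leukocyte list is lowest on HDC-M 3 (0.61) and the skeletal muscle list highest on HDC-A 2 (2.06).

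HDC-A was compared with HDC-M to ask about tumours with a diminished capacity to make histamine. Of the 32 genes, 31 were lower in HDC-A and 1, Sfn, higher, with a median of -0.39 against 0.0062 for all probes, of which 48.1% were below 0. The Sfn value lacks HDC-A 2, an outlier spot. With outlier spots kept its probe read 0.42, 0.15 and 0.40 in HDC-A and 0.50, 0.31 and 0.17 in HDC-M. A further Sfn probe read 0.35, 0.37 and -0.16 in HDC-A and 1.36, 0.52 and -0.03 in HDC-M. The direction of Sfn thus depends on the probe and spots used. No gene passed the adjusted p of 0.05 (limma; 1.44% of all probes), none was lower at an unadjusted p under 0.05 (7.86% of all probes), and none had every HDC-A array below every HDC-M array (10.3% of all probes). The gene with the lowest adjusted p was Krt1 (-1.04, adjusted p = 0.362). Without HDC-M 1 the median was -0.02 and without HDC-M 3 it was -0.77. Without HDC-M 3 Krt1 passed in both comparisons with HDC-M (limma), at -1.72 in HDC-A (adjusted p = 0.0406) and -1.91 in HDC-S (adjusted p = 0.0373). Over all probes 150 of 26866 passed there for HDC-A and 95 for HDC-S.

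Between the modified variants, 26 of the 32 genes were lower in HDC-S than in HDC-A and 6 higher, with a median of -0.35 (all probes 0.0044, 48.6% below 0). Without HDC-A 3 this median was -0.55 and without HDC-A 2 it was -0.22. None passed (limma; 5.26% of all probes), and 4 (12.5%) were lower at an unadjusted p under 0.05, against 8.93% of all probes: Krt15 (-1.29), Krt10 (-1.79), Lor (-1.95) and Krt5 (-1.40). Their adjusted p were 0.1204, 0.1208, 0.168 and 0.205. Ppl, Epcam and Cldn4 had every HDC-S array below every HDC-A array, 3 of 31 genes (9.68%) against 10.8% of all probes. For Epcam no HDC-S array was well above background, so the filter favours this order. Without HDC-S 2, Krt10 passed (-2.43, adjusted p = 0.0457, limma), and on the first day alone Krt17 did (-2.88, adjusted p = 0.0496, limma). Over all probes 610 of 26866 passed without HDC-S 2 and 9 of 26859 on the first day. The 3 comparisons share groups, so their differences are not independent. Most markers of some other tissues also leaned 1 way in HDC-A, though the array medians of their lists overlapped between the groups. The fibroblast median of HDC-A 1 (1.13) lay below that of HDC-M 1 (1.28). The muscle median of HDC-A 3 (0.83) lay below that of HDC-M 1 (0.92). Set against HDC-M, 21 of 24 skeletal muscle genes (median 0.59) and 16 of 17 dermal fibroblast genes (median 0.35) were higher in HDC-A. Between HDC-S and HDC-A, 20 muscle genes (median -0.71) and 16 fibroblast genes (median -0.27) were lower in HDC-S. None of these genes passed (limma). At an unadjusted p under 0.05 (limma), 7 muscle genes were higher in the first comparison and 0 lower. In the other, 5 (20.8%) were lower, against 8.93% of all probes, and 1 was higher. The share of all probes that were higher is not given, so the counts of higher genes have no measure beside them. In either comparison 0 fibroblast genes differed. Their part in the epidermal differences was not tested. The F-test over the groups called none of the 32 genes (4.65% of all probes) and had 8 (25.0%) at an unadjusted p under 0.05, against 20.9% of all probes.

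Other genes of the epidermis were read from further lists, which were also chosen with earlier results of these data known. Of 53 further cornification genes 48 (90.6%) were lower in HDC-S than in HDC-M, against 46.8% of all probes, with a median of -0.58. Of the 53, 0 passed, against 0.681% of all probes. At an unadjusted p under 0.05 (limma) 22 (41.5%) were lower, against 6.41% of all probes. The largest differences were those of Ly6d and Lypd3, surface proteins of keratinocytes (-1.92 each, adjusted p = 0.281 and 0.324). On the second scan day 34 of the 53 were higher in HDC-S. Picked after their values were seen, Sprr2d read 2.58 on HDC-M 1, 0.05 on HDC-M 3 and 2.71 on HDC-S 3, while Lce1m, a late envelope protein, read 1.79, 1.69 and 0.32 on the same arrays.

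The 14 further basal and hemidesmosome genes had a median difference of -0.01 between HDC-S and HDC-M. Col17a1, the hemidesmosome collagen, stood apart among them at -1.84 (adjusted p = 0.157), while Lgals3, a galectin that many cells make, was 0.46 higher (adjusted p = 0.272) and passed between HDC-S and HDC-A (1.03, adjusted p = 0.0141). Of 19 further adhesion genes 17 were lower, with a median of -0.15, led by Mal2 (-0.71) and Gjb6 (-0.65). Of 16 epidermal transcription factors 14 were lower, with a median of -0.13, and Lhx2 differed by -0.37 (adjusted p = 0.161).

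Markers of other skin parts and cell types were read on the same arrays. The 13 sebaceous gland genes had a median of -0.14, with Krt79 (-1.33) and Cidea (-1.23) lowest, and Mogat2 was lower in HDC-A than in HDC-M (-0.63, adjusted p = 0.0299). The 19 hair follicle genes had a median of 0.05, with Krt71 (-0.25) and Krt34 (0.17) farthest from 0, and the 5 keratins of simple epithelia -0.01, with Krt23 (-0.70) and Krt20 (0.13) farthest. The list medians of skeletal muscle genes lay between 0.83 and 2.06 in HDC-A, between 0.49 and 0.92 in HDC-M and between 0.37 and 1.15 in HDC-S. Those of dermal fibroblast genes lay between 1.13 and 2.23, between 1.11 and 1.32 and between 1.098 and 1.34. In HDC-A the highest was HDC-A 2 for both lists. The muscle genes farthest from 0 between HDC-S and HDC-M were Myh4 (-0.79) and Tnnc2 (-0.47), and the fibroblast genes Postn (-0.41) and Fbn1 (0.30). Between HDC-S and HDC-M the medians of adipocyte genes and of Langerhans cell genes were 0.10, with Slc2a4 (-0.88) and Lpl (0.39) farthest, and 0.05, with H2-Aa (0.50) and Cd1d1 (0.17) farthest. Leukocyte genes had medians of 1.80, 2.24 and 0.61 in HDC-M and 1.65, 2.24 and 2.07 in HDC-S, so that HDC-M 3 was low in leukocyte genes as well as in Krt16. Cd74 (0.61) and H2-Aa, genes of antigen presentation, lay farthest from 0 in that list. The part of these cells in the epidermal differences was not tested. The melanocyte list, the lineage of the tumour cells, had medians between -0.09 and 0.63 on the 9 arrays, with Oca2 lower (-1.02, adjusted p = 0.0118) and Kit higher (0.73, adjusted p = 0.0192) in HDC-S than in HDC-M. Kit passed in HDC-A against HDC-M as well (0.44, adjusted p = 0.0493), and Tyr (-0.48, adjusted p = 0.0121) and Oca2 (-0.62, adjusted p = 0.0171) were lower in HDC-S than in HDC-A.

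Over the 12347 genes with a value on every array, those whose values followed the median of the cornifying genes most closely were Mal2 (Pearson r = 0.993), Elovl4 (0.989), Teddm3 (0.985), Il1f5 (0.984) and Klk8 (0.981), over 9 arrays. Of the 15 closest, 11 belong to the other epidermal lists, and Teddm3, Tmprss4, Tent5b and Sec14l4 belong to none. All 15 were highest on HDC-M 1, and none passed between HDC-S and HDC-M (limma). These correlations describe 9 arrays that share 1 reference and in which HDC-M 1 stands far from the rest, and no test was made of them.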

How the data were processed

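RNA of 9 tumour pools, 3 per group, was measured on 2-colour Agilent arrays. The deposited scanner files hold intensity values and log10 ratios, and other columns with flags and spot types, which come from Feature Extraction (Agilent, version 8.5.1.1) per the file headers. The authors' deposited value table gives log10(Cy5/Cy3) and equalled the scanner files' ratio at all 43790 spots within 1e-06, which settles its scale and direction, with no further centring. Genome build is not given in the sources used here.

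Mean signals were background-corrected (normexp, offset 50) and normalised by loess within each array with limma 3.58.1 in R 4.3.3. Control and outlier spots were left out. Probes well above background in Cy5 on at least 3 of 9 arrays were kept (26867 of 41174). Probes were named through RefSeq accessions, symbols and synonyms. Groups were compared with lmFit and eBayes over all kept probes, with Benjamini-Hochberg adjustment, and the number of arrays limits the precision. The fit was tested on simulated data for HDC-S against HDC-M (25751 probes, 200 changed), where 61% of changes of 0.5 and 91% of changes of 1 on the log2 scale were recovered and 7.88% of calls were false. This is over all probes, which vary less than the epidermal genes. Python 3.11.15 and matplotlib 3.10.9 drew the figures.

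The genes and lists were chosen with earlier results of these data known. In full are given up to 4 genes of each role with the largest difference between HDC-S and HDC-M, and of each further list the 2 largest differences and the genes that passed. The value of 1 gene that this rule names is not reported here. Alternatives covered background, normalisation, filters, probes, outliers, weights, blocks, scan days and each array left out. The second scan day alone was added after seeing the data. Same-numbered arrays of different groups correlated with r of -0.19 to 0.55 in their deviations from group means over 9 pairs, so the numbers were not taken as pairs.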

Additional observations from a re-analysis of the deposited data

How the results depend on the processing

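None of the 32 genes passed in any comparison or in the F-test over all arrays. Under the scanner software's ratios, and equally in the authors' value table, the median difference of the 32 genes was -1.61 (HDC-S against HDC-M) and -0.94 (HDC-S against HDC-A), and that of the cornifying genes -1.04 (HDC-S against HDC-M). The basal median of HDC-S against HDC-M was -2.03 with median centring, -2.10 with scaling after loess and -2.14 in the Cy5 channel alone, and that of HDC-A against HDC-M -0.94 with scaling after loess. The cornifying median of HDC-S against HDC-M was -1.23 where Cy5 had to be well above background on 6 arrays (11 genes) and -1.17 on the first scan day alone. On that day 4 genes passed in HDC-S against HDC-M (Krt14 -3.91, with 1 usable HDC-M array, Krt16 -4.49, Krt17 -3.24, Lgals7 -3.12) and 1 in HDC-S against HDC-A. Of 26859 probes in that first-day fit, 30 passed in HDC-S against HDC-M and 9 in HDC-S against HDC-A. On the second day alone, added after seeing the data, the medians of HDC-S against HDC-M were 0.0574 (30 genes with a value), 0.0778 (basal) and 0.0475 (cornifying). The cornifying median of HDC-A against HDC-M was -0.0163 there and the basal median of HDC-S against HDC-A 0.49. Cldn1 turned to 0.0397 (adjusted p = 0.914, limma) with median centring. The causes were not tested.

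With 1 array left out, the number of genes that passed ranged from 0 to 1 in each comparison. By the F-test it ranged from 0 to 2 (Krt1 and Lgals7 without HDC-M 3, Krt10 without HDC-S 2). Over all probes the F-test then called 1126 of 26866 without HDC-M 3 and 409 of 26866 without HDC-S 2. For HDC-S against HDC-M the median of the 32 genes ranged from -1.19 (without HDC-M 3) to -0.49 (without HDC-M 1), the basal median from -1.79 to -0.92 and the cornifying median from -0.95 to -0.15. For HDC-A against HDC-M these 3 ranged from -0.77 to -0.02, from -0.59 to -0.03 and from -0.75 to -0.11, and for HDC-S against HDC-A from -0.55 to -0.22, from -1.59 to -0.73 and from -0.28 to -0.13. Over all probes 183 passed in HDC-S against HDC-M, 7 with the scanner software's ratios, 5 with median centring, 719 with array weights and 85 with the scan day as a block. With the replicate number as a block 0 of the 32 genes and 70 of all probes passed, and the medians were as without the block (-0.83 for HDC-S against HDC-M). Dim reference signals limit how far the ratios measure the change in the tumours.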
